A study of Schizosaccharomyces pombe with 4 samples.

Results

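Of 4888 Schizosaccharomyces pombe genes with a ChIP-chip signal for Upf1, 209 (4.28%) combined high RNA polymerase II (Pol II) loading with a low RNA level. A gene was taken when its Pol II ratio lay above the 75th percentile of all genes and its RNA level lay below the median of all genes. Upf1 was examined at these genes by chromatin immunoprecipitation (ChIP) and hybridisation to Affymetrix tiling arrays, in an S-phase culture and in an asynchronous culture, each with 1 immunoprecipitated (IP) array. In both, endogenous upf1 was fused to a hemagglutinin (HA) epitope and HA antibody was used for the IP. Cells of the S-phase culture carried cdc25-22, a temperature-sensitive allele of the phosphatase that drives entry into mitosis. Arrest lasted 3.5 h at 37 °C, and cells were fixed 60 min into the release at 25 °C. The asynchronous culture was labelled as untreated, and the labels give the same growth text for both cultures. The only HA-tagged upf1 strain without a tagged Pol II subunit in the published strain list carries cdc25-22. That list does not assign strains to cultures, so whether the asynchronous cells carried cdc25-22 was not settled here. The 2 input arrays, also labelled as untreated, were averaged and served both IPs. Pol II (phosphorylated on Ser5 of the repeated tail of its largest subunit) and RNA were the authors' means from other published datasets, so they describe other cultures than those in which Upf1 was measured.

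Upf1 is an RNA helicase best known for nonsense-mediated decay, the pathway that removes mRNAs on which translation stops too early. Ser5 phosphorylation of Pol II marks polymerase that has begun to transcribe. The level of an RNA is set by how fast it is made and how fast it is removed, so a gene may carry much Pol II and still have little RNA.

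Upf1 and Pol II values are given as the log2 of the IP over input ratio, set to 0 at the median gene of each column. Before centring, the median Upf1 ratio was 0.195 in S phase and 0.774 in asynchronous cells, so a ratio of 1 marks nothing and only the position relative to the median gene is read. With 1 IP array for each culture there was no replicate error, and no test was possible. The spread between arrays was estimated instead from the standard deviation across genes of the S-phase minus asynchronous difference, divided by the square root of 2. It came to 0.24 on the log2 scale. True differences between the cultures would raise it. Error of the shared input mean cancels in the difference and is left out, so 0.24 is not an upper bound for the error of a ratio.

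Pol II and RNA chose the genes and are described here without a test. The Pol II threshold was a ratio of 0.708, or 0.37 on the centred log2 scale, and the RNA threshold was 3.74 on the natural log scale, or 41.0 FPKM. Pol II and RNA rose together over all genes (Spearman's rank correlation of 0.59, n = 4888 genes). Accordingly, only 17.1% of the 1222 genes with high Pol II had low RNA. The 209 genes had a median Pol II of 0.60, against -0.026 for the other 4679 genes, and a median RNA level of 27.3 FPKM, against 42.8 FPKM. Many sat near a boundary: the upper quartile of RNA was 34.6 FPKM with a maximum of 40.5 FPKM, and the lower quartile of Pol II was 0.46 with a minimum of 0.38. Just inside the Pol II threshold were git3 at a ratio of 0.709, ibp1 at 0.712 and ggc1 at 0.713. Just outside it were SPAC1399.02 at 0.708, with SPBC16G5.06 and SPCC584.13 at 0.707. On the RNA axis, pqr1 at 40.5 FPKM and lsg1 and mcs4 at 40.3 FPKM were the last inside. SPBC3H7.05c and cpp1 at 41.0 FPKM and SPAC13C5.05c at 41.1 FPKM were the first outside.

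**Figure D1:**
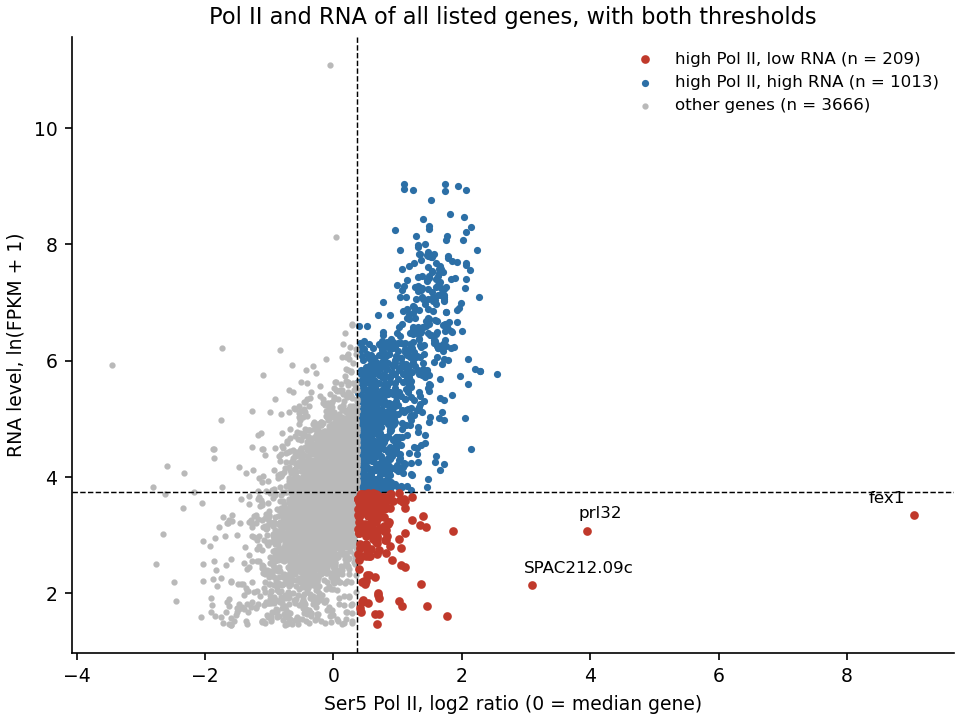
Ser5 Pol II (x axis, log2 ratio set to 0 at the median gene) against RNA level (y axis, natural log of FPKM + 1) for all 4888 genes, with dashed lines at both thresholds. The 209 genes with high Pol II and low RNA (red) fill the lower right field, most of them near the crossing of the lines, and fex1 stands far to the right at 9.04.

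At these genes Upf1 was higher than at the rest of the genome in both cultures, by a small margin. Their median Upf1 was 0.27 in S phase and 0.20 in asynchronous cells, against -0.011 in S phase and -0.0079 in asynchronous cells for the other 4679 genes. This made 1.21-fold in S phase and 1.15-fold in asynchronous cells. The middle of the distribution ran from -0.016 to 0.51 in S phase and from 0.013 to 0.35 in asynchronous cells (quartiles), so the genes with high Pol II and low RNA overlapped widely with the others. No error across arrays can be put on these medians, since the spread of 0.24 is that of a single gene.

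Most of the set stood above the median gene. In S phase 153 of the 209 (73.2%) lay above it, and in asynchronous cells 160 (76.6%), where 50% of all genes do in each culture. In both cultures 136 (65.1%) lay above it, against 38.3% of all genes, and 32 (15.3%) lay below it in both, also against 38.3%. At least 1.5-fold above the median gene, called enriched here, were 46 (22.0%) in S phase and 17 (8.13%) in asynchronous cells. The shares over all 4888 genes were 11.2% in S phase and 5.14% in asynchronous cells. Of the enriched genes 10 were enriched in both cultures (4.78%, against 3.36% of all genes), 36 in S phase alone and 7 in asynchronous cells alone. The S-phase column was the wider one (SD over all genes 0.48 in S phase and 0.34 in asynchronous cells), and with S phase scaled to the asynchronous spread 13 genes were enriched in S phase, fewer than the 17 in asynchronous cells. At 2-fold, 7 (3.35%) passed in S phase, against 2.97% of all genes, and 1 (0.478%) in asynchronous cells, against 0.491%. The upper end was thus as sparse as in the genome at large. At the other end 17 (8.13%) lay at least 1.5-fold below the median gene in S phase and 7 (3.35%) in asynchronous cells, where the genome gave 7.96% in S phase and 3.36% in asynchronous cells.

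**Figure D2:**
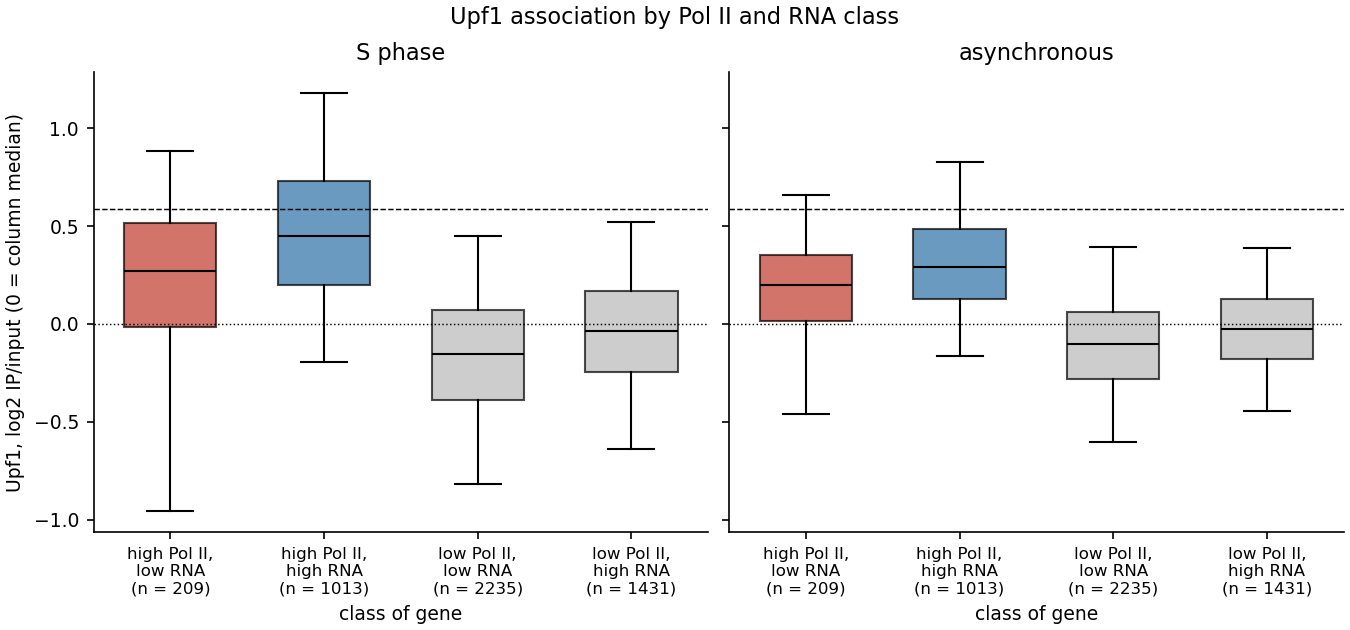
Upf1 (y axis, log2 IP/input, 0 at the median gene) in S phase (left panel) and asynchronous cells (right panel) for the 4 classes formed by both thresholds. Boxes are quartiles with the median, whiskers are the 5th and 95th percentiles of genes, and the dashed line is 1.5-fold; the red boxes (median 0.27 in S phase and 0.20 in asynchronous cells) lie between the blue ones and the grey ones.

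Compared with the class most like them, the 1013 genes with as high a Pol II class and RNA at or above the median, the genes with low RNA had less Upf1. The medians were 0.27 for low RNA and 0.45 for high RNA in S phase, and 0.20 for low RNA and 0.29 for high RNA in asynchronous cells. Enriched genes made up 22.0% of the low-RNA class and 38.0% of the high-RNA class in S phase, and 8.13% of the low-RNA class and 16.9% of the high-RNA class in asynchronous cells. In the remaining classes Pol II lay at or below the 75th percentile, called low here although it takes in the median gene. Genes with both Pol II and RNA low had medians of -0.15 in S phase and -0.10 in asynchronous cells. Genes with high RNA and low Pol II in this sense had a median Pol II of -0.00013. Their median Upf1 was -0.034 in S phase and -0.026 in asynchronous cells. High Pol II with low RNA thus lay above low Pol II with high RNA by 0.30 in S phase and 0.22 in asynchronous cells.

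The classes were not matched in Pol II, so the genes above the Pol II threshold were cut by rank into 4 slices of equal size. In the lowest slice the 69 low-RNA genes had a median Upf1 of 0.25 in S phase and 0.16 in asynchronous cells, and the 237 high-RNA genes had 0.20 in S phase and 0.15 in asynchronous cells. In the second slice 81 low-RNA genes had 0.28 in S phase and 0.17 in asynchronous cells, and 224 high-RNA genes had 0.32 in S phase and 0.20 in asynchronous cells. In the third slice 43 low-RNA genes had 0.41 in S phase and 0.26 in asynchronous cells, and 262 high-RNA genes had 0.52 in S phase and 0.30 in asynchronous cells. In these 3 slices the medians of the classes thus lay within 0.11 of each other, and without replicate arrays no error can be put on these gaps. The medians came apart in the highest slice. There 16 low-RNA genes had -0.015 in S phase and 0.20 in asynchronous cells. The 290 high-RNA genes had 0.80 in S phase and 0.52 in asynchronous cells. Of the 16 low-RNA genes, 5 (31.25%) were enriched in S phase and 1 (6.25%) in asynchronous cells. The shares of the 290 were 74.8% in S phase and 38.6% in asynchronous cells. The classes were least alike in GC content in this slice, with medians of 34.3% for low RNA and 41.0% for high RNA. Pol II reached 9.04 for low RNA and 2.54 for high RNA. The 16 included fex1 and SPAC212.09c, where 75.2% and 98.8% of 25-base words occur elsewhere in the genome. What set the gap in this slice was not tested. Without the highest slice the difference between the classes in S phase was -0.055, in place of -0.18.

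**Figure D3:**
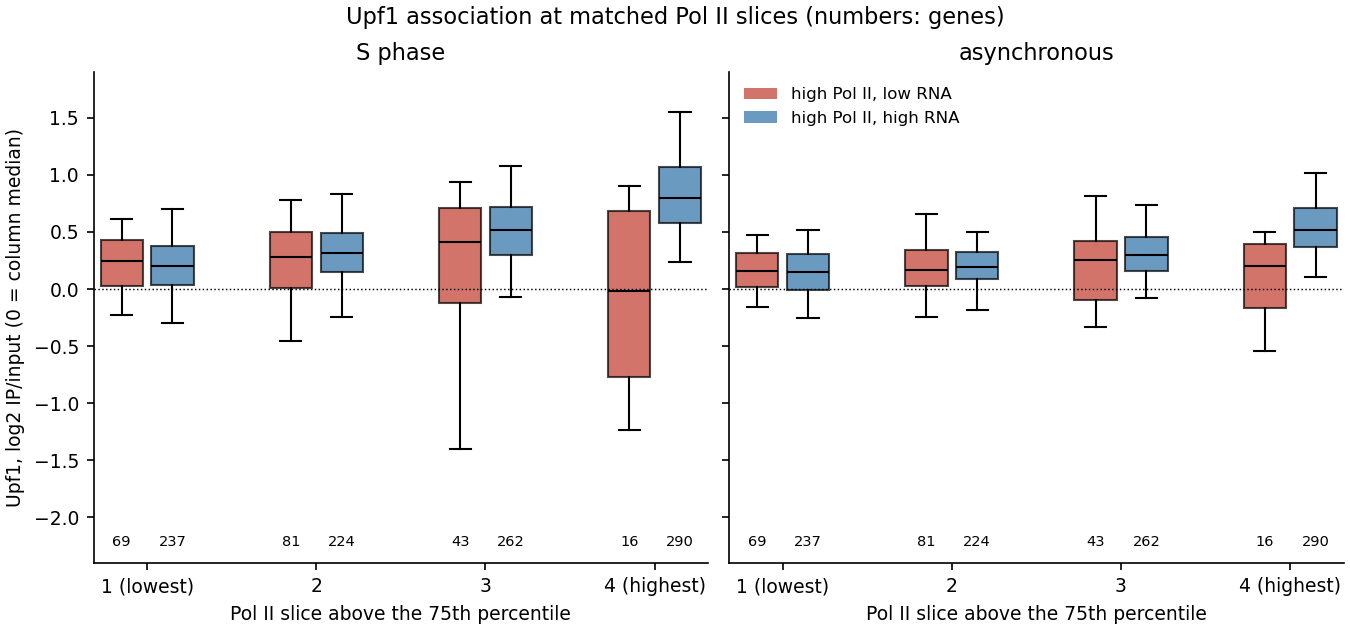
Upf1 (y axis, log2 IP/input) in the 4 Pol II slices above the 75th percentile (x axis), in S phase (left panel) and asynchronous cells (right panel), with low-RNA genes in red left of high-RNA genes in blue. Boxes are quartiles, whiskers the 5th and 95th percentiles, and the numbers below count genes; the pairs overlap in slices 1 to 3 and separate in slice 4.

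Across the lower bins of RNA level among genes with high Pol II, Upf1 medians changed little. When the 1222 genes with high Pol II were cut by RNA level into 5 bins of equal size, the lowest 3 bins had nearly the same median Pol II (0.60, 0.58 and 0.59) and median Upf1 values of 0.27, 0.33 and 0.32 in S phase, and 0.20, 0.20 and 0.21 in asynchronous cells. The upper 2 bins had more Pol II (0.78 and 1.38), and their Upf1 medians were 0.54 and 0.71 in S phase and 0.27 and 0.51 in asynchronous cells. All 209 genes with low RNA were in the lowest bin, among them the 16 of the highest Pol II slice.

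Within the 209 genes the rank correlation of Upf1 with Pol II was low. Spearman's coefficient was 0.025 in S phase and 0.033 in asynchronous cells, whereas among the 1013 high-RNA genes it was 0.58 in S phase and 0.54 in asynchronous cells. The quartiles of Pol II lay closer together for low RNA (0.46 and 0.73) than for high RNA (0.52 and 1.18). Medians of Upf1 in the low-RNA class were nevertheless higher in the third slice than in the first, but the 16 genes of the highest slice broke this order. Of 3 bins of the 209 genes by Pol II, low to high, 7, 15 and 24 genes were enriched in S phase and 2, 6 and 9 in asynchronous cells. The medians of these bins differed little, at 0.26, 0.27 and 0.27 in S phase and 0.15, 0.20 and 0.21 in asynchronous cells. The rank correlation with RNA level was 0.095 in S phase and 0.11 in asynchronous cells, against 0.42 and 0.40 in the high-RNA class. With GC content of the gene it was larger, at 0.37 in S phase and 0.35 in asynchronous cells (204 genes with an annotation). The high-RNA class had 0.43 in S phase and 0.45 in asynchronous cells, and all genes had 0.50 and 0.54. The correlation with GC content was thus lower in the set than in either. All genes share the same arrays and input mean, and genes are not replicates. GC content also differed between the classes: the median was 36.7% for low RNA, 38.8% for high RNA and 36.8% over all genes. After a smooth GC trend over all genes was removed, the low-RNA genes still stood above the other genes, by 0.27 in S phase and 0.18 in asynchronous cells. Their difference from the high-RNA class became -0.01 in S phase and 0.03 in asynchronous cells.

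The genes with most Upf1 by the mean of both cultures were a mixed group. First came SPBC31A8.02, an annotated pseudogene of 360 bp with 1.20 in S phase and 0.99 in asynchronous cells. It lies between rtn1, with 0.75 in S phase and 0.41 in asynchronous cells, and but2, with 1.25 in S phase and 0.68 in asynchronous cells. Its GC content is 53.9%, and with the GC trend removed its Upf1 was -0.094 in S phase and -0.037 in asynchronous cells. Next was rds1, an adenine-repressible gene, with 1.29 in S phase and 0.84 in asynchronous cells at 34.7 FPKM, or 0.59 in S phase and 0.32 in asynchronous cells with the GC trend removed. Neither of its listed neighbours resembled it in S phase, with -0.07 at msc1 and -1.48 at the overlapping SPAC343.20. The non-coding SPNCRNA.73, without a match in the annotation, had 1.07 in S phase and 0.81 in asynchronous cells.

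A pair of transporter genes owed their rank to S phase. Transcripts of mpc2 encode a subunit of the carrier that brings pyruvate into mitochondria, and the gene had the highest S-phase value, 1.54, with 0.21 in asynchronous cells. The ammonium transporter gene amt1 had 1.35 in S phase and 0.26 in asynchronous cells. At both, the asynchronous value lay close to the median of the 209 genes. The other 5 of the first 10 were high in both cultures, and 4 of them are given here. SPAC4G9.22, an uncharacterised protein gene, had 1.00 in S phase and 0.74 in asynchronous cells, and SPAC23C11.06c, annotated as a hydrolase, had 0.78 in S phase and 0.95 in asynchronous cells. The meiotically upregulated mug33 had 0.78 in S phase and 0.82 in asynchronous cells. For bgl2, annotated as a glucan beta-glucosidase, the values were 0.68 in S phase and 0.85 in asynchronous cells. These 4 genes had 8.74 to 40.0 FPKM, so they spanned much of the RNA range of the set. With the GC trend removed, S-phase values were 1.26 for SPAC4G9.22, 0.46 for mug33, 0.41 for bgl2 and 0.28 for SPAC23C11.06c, and asynchronous values were 0.93 for SPAC4G9.22, 0.59 for mug33, 0.65 for bgl2 and 0.60 for SPAC23C11.06c.

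Of the 5 genes with least Upf1, 3 were non-coding. SPNCRNA.424 had -1.57 in S phase and -0.97 in asynchronous cells, SPNCRNA.240 had -1.64 in S phase and -0.90 in asynchronous cells, and SPNCRNA.427 had -1.32 in S phase and -0.73 in asynchronous cells. The protein-coding mug117 had -1.21 in S phase and -1.01 in asynchronous cells, and SPAC1D4.07c, which had no match in the annotation, had -1.16 in S phase and -0.71 in asynchronous cells. Their Pol II ran from 0.56 to 1.12.

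Non-coding RNA genes were more frequent in the set than in the genome, and their median Upf1 was not above that of the genome. Of the 209 genes 16 (7.66%) had a non-coding identifier, against 2.70% of all genes. The share was 4.16% of genes with both Pol II and RNA low, and 1.18% of the class with high Pol II and high RNA. The rule takes only genes with RNA below the median, which bears on this share. Median Upf1 of the 16 was -0.083 in S phase and -0.042 in asynchronous cells. The other 193 genes had 0.28 in S phase and 0.20 in asynchronous cells. Values of the 16 were widely scattered, from -1.64 to 1.27 in S phase and from -0.97 to 1.07 in asynchronous cells. Of the 16 non-coding genes 5 were enriched in S phase and 2 in asynchronous cells, where 11.2% and 5.14% of all genes were. At least 1.5-fold below the median gene lay 6 in S phase and 4 in asynchronous cells, where 7.96% and 3.36% of all genes did. In these small numbers both ends held more of them than the share over all genes. SPNCRNA.570 had the highest asynchronous value of the whole set, 1.07, but -0.15 in S phase. SPNCRNA.258 was at 4.01 FPKM with a Pol II of 1.77 and had 0.68 in S phase and 0.19 in asynchronous cells. It lies beside the ribosomal protein gene rpl31, with a Pol II of 1.82 and Upf1 of 0.72 in S phase and 0.68 in asynchronous cells. Genes shorter than 1000 bp (25 of the 204 annotated) likewise had medians near the median gene, at -0.061 in S phase and 0.015 in asynchronous cells. Of the 25, 7 were enriched in S phase and 3 in asynchronous cells, so their values were also scattered.

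Transporters and permeases were the largest functional group relative to the genome, grouped by words in the annotated product. They were 24 of the 190 protein-coding genes (12.6%), against 4.38% of all listed protein-coding genes and 3.51% of those with high Pol II and high RNA. Their median Upf1 was 0.51 in S phase and 0.26 in asynchronous cells, against 0.24 in S phase and 0.11 in asynchronous cells for all 207 listed transporter genes. The 35 transporter genes with high Pol II and high RNA had 0.64 in S phase and 0.37 in asynchronous cells, above the set. Of the 24, 21 lay above the median gene in both cultures, 10 were enriched in S phase and 1 in asynchronous cells. After mpc2 and amt1 came the sulfate transporter gene sul1 with 0.89 in S phase and 0.44 in asynchronous cells, and msy1, encoding a mechanosensitive ion channel, with 0.74 in S phase and 0.51 in asynchronous cells. The uracil transporter gene fur4 had 0.65 in S phase and 0.35 in asynchronous cells, and pkd2, encoding a calcium channel, had 0.62 in S phase and 0.35 in asynchronous cells. Of the transporter genes enriched in either culture, only sod22, encoding a sodium and proton antiporter, was lower in S phase, with 0.40 in S phase and 0.72 in asynchronous cells. The set is 4.28% of all genes, so a short list would hold few members or none at that share. By symbol lists, the set held 0 of 9 amino acid permeases, 0 of 5 hexose transporters and 0 of 11 iron uptake genes, and 1 of 10 phosphate and thiamine genes. That 1 was tgp1, a phosphate-repressed gene for glycerophosphodiester uptake, with 0.57 in S phase and 0.30 in asynchronous cells at 12.1 FPKM.

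Genes for transcription factors and chromatin proteins were 23 of the 190 (12.1%), against 6.11% of all listed protein-coding genes. Their median Upf1 was 0.48 in S phase and 0.28 in asynchronous cells, whereas the 289 listed genes of this kind had -0.056 in S phase and -0.022 in asynchronous cells. The 40 with high Pol II and high RNA had 0.55 in S phase and 0.31 in asynchronous cells, slightly above the set. Of the 23, 18 lay above the median gene in both cultures, 6 were enriched in S phase and 4 in asynchronous cells. Stb3, a DNA-binding factor, had 0.90 in S phase and 0.62 in asynchronous cells. Scr1, which represses genes when glucose is plentiful, had 0.71 in S phase and 0.61 in asynchronous cells. The MADS-box genes mbx1, with 0.45 in S phase and 0.79 in asynchronous cells, and mbx2, with 0.51 in S phase and 0.48 in asynchronous cells, were both in the set. The 3 Mediator subunit genes were at the low end: med20 had 0.07 in S phase and -0.47 in asynchronous cells, med14 had -0.37 in S phase and -0.09 in asynchronous cells, and med10 had -0.83 in S phase and -0.33 in asynchronous cells. Another gene of the general machinery, sua7 for TFIIB, had 0.47 in S phase and 0.20 in asynchronous cells.

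Kinase, phosphatase and signalling genes numbered 25 (13.2%, against 9.81% of listed protein-coding genes), with median Upf1 of 0.32 in S phase and 0.081 in asynchronous cells. The product words also took in a few metabolic enzymes, such as the choline kinase gene eki1. Metabolic enzymes (20 genes, 10.5% against 15.5%) had 0.18 in S phase and 0.21 in asynchronous cells. The rule takes only genes with RNA below the median, which bears on the groups the set can hold. Ribosome biogenesis and translation was sparse, with 7 genes (3.68%), against 10.6% of listed protein-coding genes and 24.9% of those with high Pol II and high RNA. Their median was -0.10 in S phase and 0.22 in asynchronous cells, none was enriched in either culture, and 4 of them encode mitochondrial ribosomal proteins. No product word placed 67 of the 190 genes in any group.

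**Figure D4:**
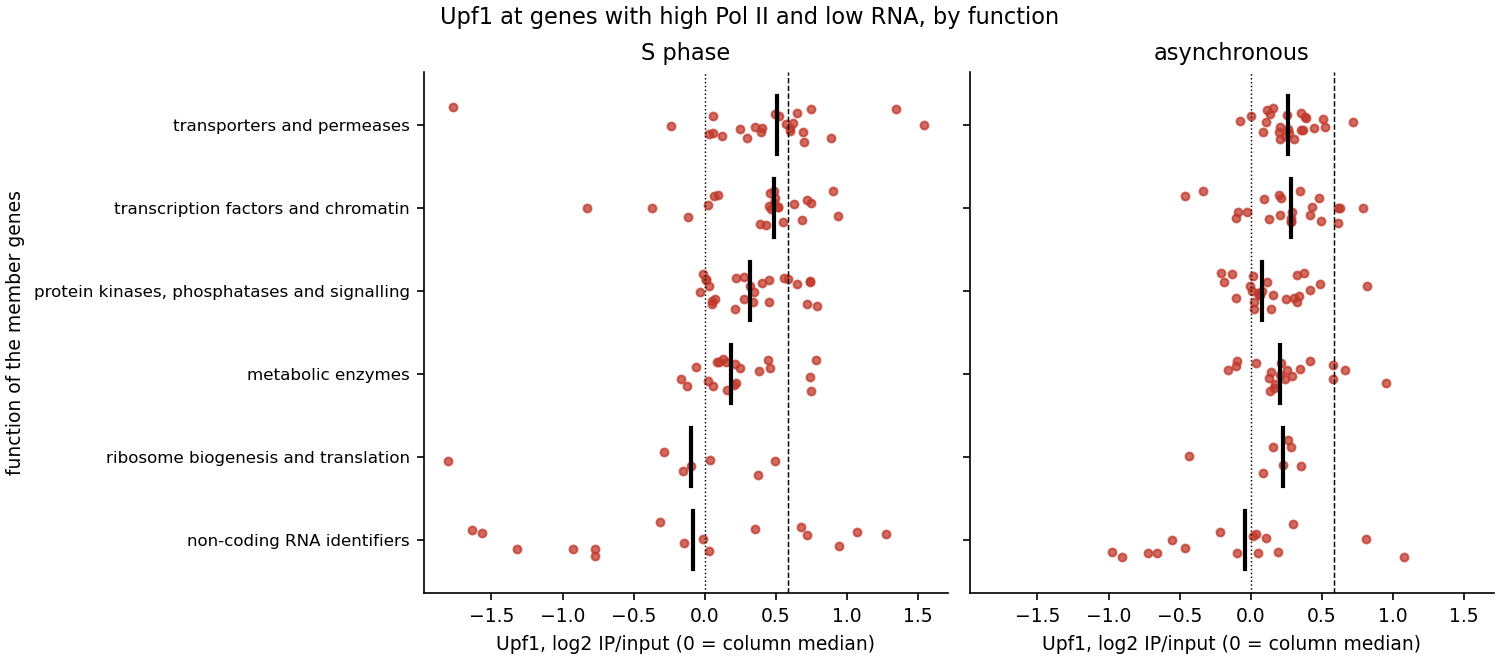
Upf1 (x axis, log2 IP/input, 0 at the median gene) of every gene with high Pol II and low RNA in 6 groups (y axis), in S phase (left panel) and asynchronous cells (right panel). Each point is a gene, black bars are group medians and the dashed line is 1.5-fold; transporters and transcription factors centre near 0.5 in S phase, and the non-coding genes spread on either side of 0.

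Lists of gene symbols gave a similar picture in small numbers. The RNA threshold parts the set from the class with high Pol II and high RNA, so a gene with low RNA cannot be in that class. Of 14 listed meiotic genes, 4 were in the set and 0 in that class. They were ste11, the master regulator of mating and meiosis, with 0.49 in S phase and 0.63 in asynchronous cells; mei4, a forkhead factor of meiosis, with 0.43 in S phase and 0.29 in asynchronous cells; mug8 with 0.31 in S phase and 0.45 in asynchronous cells; and the meiotic cyclin gene crs1 with 0.05 in S phase and -0.10 in asynchronous cells. Their RNA ranged from 4.91 to 23.3 FPKM. All 14 listed meiotic genes had a median of -0.085 in S phase and -0.10 in asynchronous cells. Of 20 mitotic regulators 4 were in the set: wee1 with 0.59 in S phase and 0.41 in asynchronous cells, cdc25 with 0.45 in S phase and 0.33 in asynchronous cells, mbx1, and spo12 with -0.48 in S phase and -0.19 in asynchronous cells. Of 18 stress genes of the MAP kinase Sty1, the set held atf1, encoding the transcription factor of the pathway, with 0.49 in S phase and 0.43 in asynchronous cells, and pyp1, encoding a phosphatase that inactivates Sty1, with 0.45 in S phase and 0.32 in asynchronous cells. The set held 0 of 10 core histone genes, 0 of 21 nucleolar genes, 0 of 21 cell wall synthesis genes and 0 of 21 mRNA decay genes. With the set at 4.28% of all genes, lists this short would hold few members or none at that share. These zeros are therefore not read as a trait of the set.

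Some further regulators of cell size at division were picked out after the values were known, from genes of the set alone, so they describe those genes and not the set. Beside wee1, which holds back the mitotic kinase Cdc2, and cdc25, which releases it, the set held cdr1, whose kinase inhibits Wee1, with 0.72 in S phase and 0.49 in asynchronous cells. It also held nif1, encoding an inhibitor of Cdr1, with 0.28 in S phase and 0.15 in asynchronous cells, the cell polarity kinase gene pom1 with 0.28 in S phase and 0.08 in asynchronous cells, and the Cdk inhibitor gene rum1 with -0.07 in S phase and 0.15 in asynchronous cells. The median of these 6 was 0.36 in S phase and 0.24 in asynchronous cells, at 22.6 to 36.3 FPKM. The S-phase culture carried a mutated cdc25, and the asynchronous culture may have carried it too. In the same way 5 genes of the stress MAP kinase pathway (win1, mcs4, mpr1, pyp1 and atf1) were gathered, with medians of 0.32 in S phase and 0.20 in asynchronous cells.

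Between the cultures the genes with high Pol II and low RNA shifted less than those with high RNA, and they had more extreme differences than all genes. The S-phase minus asynchronous difference had a median of 0.059, against -0.0025 for the other genes and 0.16 for the class with high Pol II and high RNA. Its standard deviation was 0.47 among the 209 genes and 0.35 over all genes. The quartiles were closer, at -0.18 and 0.24 for the 209 genes and -0.19 and 0.19 over all genes, so the extra spread lay mostly in the tails. At least 1.5-fold higher in S phase were 13 genes (6.22%, against 3.78% of all genes), and at least 1.5-fold lower were 14 (6.70%, against 4.03%). In the class with high Pol II and high RNA, 7.31% were higher and 1.97% lower. Only the lower tail was thus fuller than in that class. Upf1 in S phase and in asynchronous cells was correlated across the 209 genes with a rank coefficient of 0.51, and across all genes with 0.69. The ratios share their inputs, which by itself makes the columns alike. When the S-phase values were scaled to the asynchronous spread, the median difference was -0.013, so its direction rests on the scale.

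**Figure D5:**
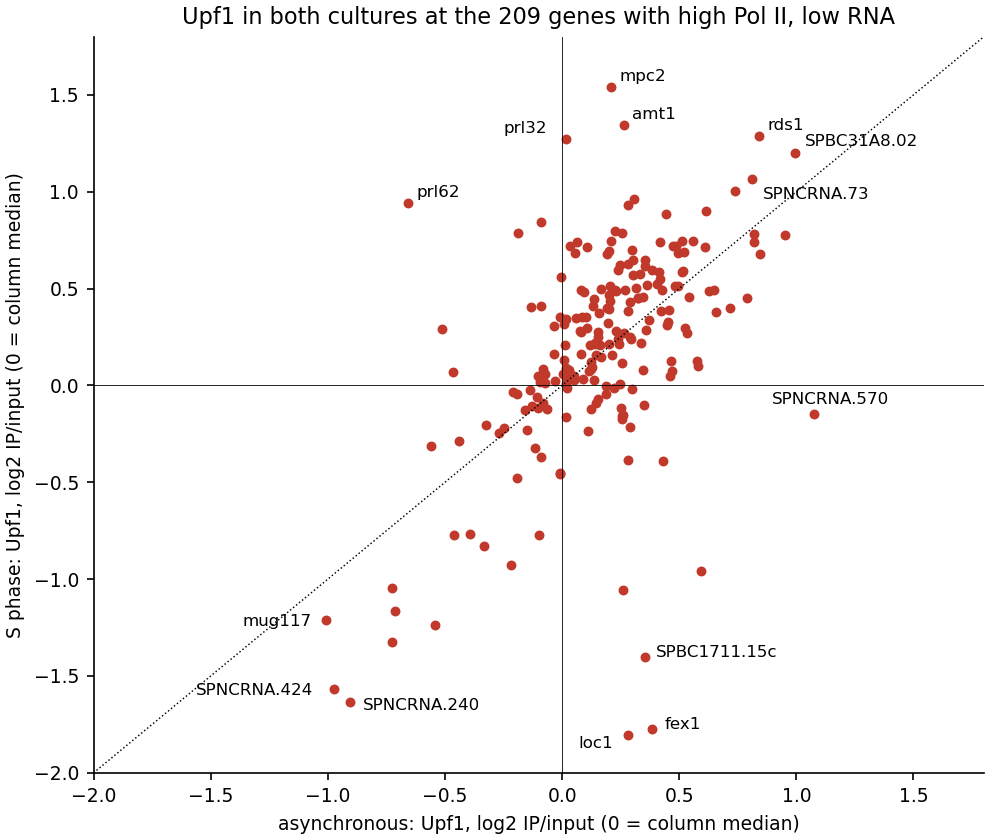
Upf1 in asynchronous cells (x axis) and in S phase (y axis), both as log2 IP/input with 0 at the median gene, for each of the 209 genes; the dotted line marks equal values. Most genes lie in the upper right field, mpc2, amt1, prl32 and prl62 lie well above the line, and fex1, loc1 and SPBC1711.15c lie far below it.

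Of the 6 genes with the widest gaps between cultures, 4 were shorter than 1000 bp, mpc2 among them. The non-coding prl62 had 0.94 in S phase and -0.66 in asynchronous cells, and prl32 had 1.27 in S phase and 0.01 in asynchronous cells. On the other side, loc1, a gene for a pre-ribosomal protein, had -1.81 in S phase and 0.28 in asynchronous cells, and SPBC1711.15c had -1.40 in S phase and 0.36 in asynchronous cells. The fluoride exporter gene fex1 had -1.77 in S phase and 0.39 in asynchronous cells. It also had the highest Pol II of all, a ratio of 287, and 75.2% of its 25-base words occur elsewhere in the genome. SPAC212.09c, a pseudogene with 98.8% of its words repeated and a Pol II of 3.09, had -0.39 in S phase and 0.43 in asynchronous cells. In all 3 of the 209 genes, and 114 of all genes, had at least 10% of their words repeated, and without them the medians of the set were 0.27 in S phase and 0.19 in asynchronous cells. Whether repeated sequence set these values was not tested.

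Outside the rule, these genes were long and poor in introns. The median annotated length was 2114 bp, against 1758 bp for the class with high Pol II and high RNA and 1802 bp over all genes, and 25.5% were 3000 bp or longer, against 17.0% of all genes. In S phase those 52 long genes had a median Upf1 of 0.40, and the rest 0.16; in asynchronous cells both had 0.20. Genes with both Pol II and RNA low were also longer than the genome, with a median of 1945 bp and 20.2% at 3000 bp or longer. Introns were annotated in 31.6% of the protein-coding genes of the set, against 49.5% of all listed protein-coding genes. The class with high Pol II and high RNA lay between, at 41.5%.

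Overlap with neighbours was common as well. ChIP signals do not tell strands apart, so a gene that overlaps another shares part of its signal. Of 204 annotated genes 108 (52.9%) overlapped a protein-coding gene, against 43.6% of all and 36.6% of the class with high Pol II and high RNA. The 108 had a median Upf1 of 0.090 in S phase and 0.12 in asynchronous cells, whereas the other 101 genes of the set, including 5 without annotation, had 0.39 in S phase and 0.26 in asynchronous cells. An overlapping listed neighbour with high Pol II and high RNA was present at 32 (15.7%, against 7.69% of all genes), and those had 0.17 in S phase and 0.044 in asynchronous cells. Upf1 exceeded that of both adjacent listed genes at 83 of 204 (40.7%) in each culture. The share was 63.0% in S phase and 60.4% in asynchronous cells for high Pol II with high RNA, and 32.0% in S phase and 31.5% in asynchronous cells over all genes. Only 18 of the 209 were annotated and overlapped no gene of any kind, and their medians of 0.12 in S phase and 0.11 in asynchronous cells lay 0.025 and 0.021 above the non-overlapping remainder. Whether overlap set the Pol II class of these genes was not tested.

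Promoters were searched for short motifs on both strands, from 250 bases before to 50 bases after the annotated start (RefSeq annotation of ASM294v3), at 190 protein-coding genes of the set. The HomolD box (CAGTCACA), which directs ribosomal protein genes in fission yeast, was found at 2 (1.05%), against 12.0% of the class with high Pol II and high RNA and 2.85% of all promoters. The RNA threshold parts these classes and bears on this contrast too. The MCB (ACGCGT), bound by the G1-S factor MBF, was at 1 (0.526%), against 3.26% of all. The CRE core (TGACGT), bound by Atf1, was at 17 (8.95%), against 5.79% of all, and genes with it had Upf1 medians of 0.35 in S phase and 0.15 in asynchronous cells, against 0.28 in S phase and 0.21 in asynchronous cells for those without it. The TATA box (TATAAA) was at 47.9%, against 48.3% of all. A motif match is a description of the sequence and not a bound site.

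Lists given with the publication were counted as well. Genes whose RNA was raised in cells without upf1 made up 16 of the 209 (7.66%), against 5.13% of the class with high Pol II and high RNA and 7.43% of all genes, and their median Upf1 was 0.35 in S phase and 0.071 in asynchronous cells. Genes whose RNA was reduced in such cells made up 10 (4.78%), against 4.74% of that class and 3.07% of all genes, with medians of 0.28 in S phase and 0.40 in asynchronous cells. They included rds1, cdr1, pyp1 and rum1. Genes listed as covered by Upf1 regions made up 26 (12.4%) in S phase, against 23.2% of that class and 8.57% of all genes, and 31 (14.8%) in asynchronous cells, against 17.5% of that class and 7.06% of all genes. Those region lists were drawn from the same experiment and are not independent evidence.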

How the data were processed

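The deposited table holds, for each gene, linear ratios of Upf1 IP over input in 2 cultures. The authors summarised Affymetrix probe intensities to gene signals, averaged the 2 inputs and divided the IP signal by that mean; per the methods the better of 2 IP arrays for each culture was kept. A Pol II ratio, made alike from published arrays, and an RNA level, deposited as a natural log of FPKM + 1, complete it. The log base was inferred, since FPKM multiplied by length in kb summed to 917913 with the natural base and to 177585 with base 2. The genome build used for gene signals is not given in the sources used here, so no coordinates are printed. The number of arrays limits the precision, and the depth of the RNA libraries is unknown. All sample columns were mapped.

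Ratios were turned to log2 and centred on the median gene (Python 3.11.15, pandas 2.3.3, numpy 2.4.6). Names, biotypes, length, GC content and promoters came from RefSeq ASM294v3, which matched 4850 identifiers, 204 of them in the set, and left 38 unmatched. The GC trend was a lowess curve with a span of 0.3 (statsmodels 0.14.6). Calculations were tested on simulated data. The genes and lists were chosen with earlier results of these data known. Named genes were the 10 with the highest and the 5 with the lowest mean Upf1, the 5 with the highest Pol II, the 5 with the lowest RNA, the 3 widest differences each way, the 3 nearest each threshold on either side, and members of symbol lists holding 2 or more; others were named after their values were seen. Alternatives were other centring, GC removal, S-phase scaling, gene filters and stricter thresholds. Results for some genes and motifs are not reported here.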

Additional observations from a re-analysis of the deposited data

Results flagged for a closer look

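Some named genes were above the median gene in one culture and below it in the other, each by more than 0.24 on the log2 scale in both; with 1 IP array for each culture the differences were not tested. The S-phase minus asynchronous difference was 1.59 for prl62, -2.17 for fex1, -2.10 for loc1, -1.77 for SPBC1711.15c and -0.83 for SPAC212.09c. Of the 209 genes, 41 (19.6%) had opposite signs in the cultures, against 23.3% of all genes.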

How the results depend on the processing

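No paired analysis was possible because each culture had 1 IP array and no replicate numbers were shared. The excess of Upf1 over the other genes kept its direction under every alternative run, from 0.025 to 0.32 in S phase and from 0.021 to 0.23 in asynchronous cells. Centring on the lowest 25% of Pol II moved the medians to 0.53 in S phase and 0.39 in asynchronous cells and the enriched genes to 91 in S phase and 46 in asynchronous cells. GC removal turned the difference from the high-RNA class to 0.030 in asynchronous cells and moved it to -0.010 in S phase; it also turned SPBC31A8.02 to -0.094 in S phase and -0.037 in asynchronous cells. S-phase scaling left 13 enriched genes in S phase and turned the difference between cultures to -0.013 (-0.014 relative to the other genes). Without overlapping genes (18 left) the S-phase median was 0.12, the excess 0.025 in S phase and 0.021 in asynchronous cells, the difference from the high-RNA class -0.48 in S phase and -0.31 in asynchronous cells, and the enriched genes 4 in S phase and 1 in asynchronous cells. Above the 90th Pol II percentile (36 genes) the S-phase median was 0.054, as was the excess, the difference from the high-RNA class -0.64 in S phase and -0.25 in asynchronous cells, the enriched genes 10 in S phase and 4 in asynchronous cells, and the difference between cultures -0.22, also relative to the other genes. Below the 25th RNA percentile (75 genes) 18 were enriched in S phase and 8 in asynchronous cells. At a 2-fold threshold, of all 209 genes, 7 passed in S phase and 1 in asynchronous cells. Leaving out the highest Pol II slice, chosen after seeing the data as was leaving out repeated genes, moved the S-phase difference from the high-RNA class to -0.055. The cause of these changes was not tested, apart from the fewer genes left by the filters. Of the other values for named genes, 142 moved by less than 0.24 and 93 by more; counting SPBC31A8.02, the sign turned for 5 of 98 under the other centring, 7 of 90 under GC removal and 0 of 49 under S-phase scaling.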
